A study of Homo sapiens
Mus musculus with 8 samples.

Results

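Droplet libraries hold many barcodes that carry few transcripts, and the RNA in them is usually read as free RNA of the cell suspension. Here, the barcodes with 1 to 99 unique molecular identifiers (UMIs, each standing for 1 captured transcript) were taken from 7 Chromium libraries and summed per library and species. They numbered 4650784 of 4831307 barcodes (96.3%) and held 25557763 of 657583246 UMIs (3.89%), of which 3036203 were human and 22521560 mouse. They were set against the cells of the same library, the barcodes with at least 5000 UMIs of which over 80% came from that species, 8281 human and 14470 mouse cells in all. Both sides were chosen by their total UMIs, and the cells also by their share of UMIs from each species, so these values are given as a description with no test. The genes were not used in the choice. The files record no empty droplets as such, and whether the RNA was free was not measured, so the members are called low-UMI barcodes.

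In a droplet experiment, RNA that cells release before they are encapsulated floats in the suspension and enters every droplet, with a cell or without one. Cytoplasmic messenger RNA leaves a broken cell easily, whereas transcripts inside mitochondria and nuclei sit behind membranes of their own, and messengers that are being translated at the endoplasmic reticulum are bound to it. Free RNA is best known as a background that adds genes of one cell type to the profiles of another.

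All libraries came from mixtures in equal parts of 4 lymphocyte lines: EL4 and IVA12 from mouse, Jurkat and TALL-104 from human. EL4 and Jurkat are CD4 T cell lines, IVA12 is a B cell line, and TALL-104 is a CD8 T cell line with the smallest cells, which was kept in interleukin 2. The lines were mixed by counts of viable cells after a wash and were not treated. Each is 1 established line, so replicates are libraries and not independent cultures, and p-values measure only the spread between libraries, which may be technical. The 3 kits were 3′ v3 (4 libraries), 5′ v1 (2 libraries) and 3′ v2 (1 library, replicate 2, given as values with no test), while the first 3′ v2 library was not analysed here. The number of cells aimed at differed between libraries. It was higher in 3′ v3 replicates 3 and 4 than in 1 and 2, and in 5′ v1 replicate 1 than in 2. The study's sample list gives 1 cell mixture for 3′ v3 replicates 1 and 3, another for replicates 2 and 4, and others for 5′ v1 and for 3′ v2, so kit and cell preparation cannot be told apart.

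Total depth ran from 24790710 UMIs in the 3′ v2 library to 251164949 in 3′ v3 replicate 3. The part of depth and of the number of cells aimed at in what a fixed limit of UMIs selects was not tested. The low-UMI barcodes held 17.7% of the UMIs of the 3′ v2 library (exact 95% binomial interval 17.7 to 17.8%, which covers counting error only). They held 4.28% and 4.20% in the 5′ v1 libraries. In 3′ v3 replicates 1 to 4 they held 4.22%, 7.29%, 1.10% and 5.40%, a mean of 4.50% ± 2.60 (SD, n = 4), or 5.64% ± 1.55 (n = 3) without replicate 3. At this limit the 3′ v2 library had the largest share and 3′ v3 replicate 3 the smallest. With a limit of 49 UMIs the order changed, and 3′ v3 replicates 1 to 4 held 1.23%, 6.95%, 0.997% and 2.07%, the 5′ v1 libraries 1.94% and 3.82%, and the 3′ v2 library 2.97%.

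Replicate 3 of 3′ v3 stood apart, and its main body of sparse barcodes lay above 100 UMIs. On a log scale of UMIs per barcode, the fullest bin under 5000 UMIs was 63 to 78 UMIs in the 3′ v2 library, 50 to 62 and 25 to 31 in the 5′ v1 libraries, and 79 to 99, 20 to 24, 251 to 315 and 100 to 125 in 3′ v3 replicates 1 to 4. Barcodes of 100 to under 200 UMIs held 2925519 UMIs in 3′ v3 replicate 1 and 3226622 in replicate 4. Their low-UMI barcodes held 4963384 and 4972017, so the limit cut the sparse bodies of these libraries too. Barcodes of 1 to 9 UMIs made up 84% of the low-UMI sum in replicate 3, against 22.4%, 19.5% and 21.9% in its fellow 3′ v3 libraries. For 5′ v1 the values were 9.92% and 15.0%, and for 3′ v2 it was 3.85%. Most of the low-UMI sum of replicate 3 therefore came from barcodes with a handful of transcripts, and counts over the classes of genes below are given both ways where leaving it out moved them by over 1.5 times.

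**Figure D1:**
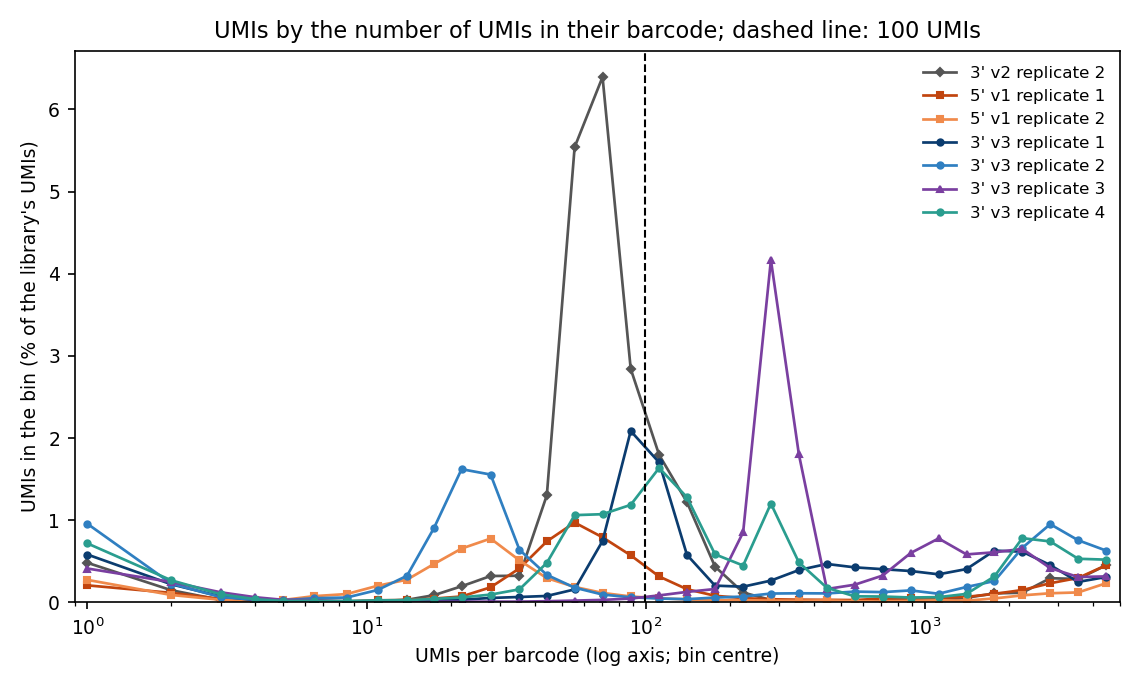
UMIs held by barcodes of a given total, as % of the library's UMIs (y axis) against UMIs per barcode (log x axis), 1 line per library, with a dashed line at 100 UMIs. The body of sparse barcodes peaks left of the line in the 3′ v2, both 5′ v1 and 2 of the 3′ v3 libraries, near it in 3′ v3 replicate 4, and at 251 to 315 UMIs in 3′ v3 replicate 3.

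The low-UMI barcodes of the 3′ v3 libraries also held many barcodes that were cells in another 3′ v3 library. Of the cell barcodes of another 3′ v3 library, 69.5 to 98.3% recurred with 1 to 99 UMIs in replicate 1, 99.6 to 99.9% in replicate 2 and 86.7 to 98.8% in replicate 4. The barcodes of the kit's list at large did so at 13.5%, 7.69% and 13.3%. In replicate 3, the barcodes of human cells of other libraries recurred at 79.3 to 88.2% and those of mouse cells at 12.4 to 55.3%, against 22.6% of the list. Recurring barcodes with over 99 UMIs are not in these shares. The mouse-cell barcodes counted in replicate 3 had medians of 59 to 72 UMIs, so their low shares do not show that they recurred less.

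These recurring barcodes were unlike the rest. Their median count was 9 to 75 UMIs, against 1 UMI over all low-UMI barcodes. Barcodes of human cells elsewhere held 89.3 to 96.5% human UMIs here, and barcodes of mouse cells elsewhere held 0.986 to 2.42%. No such pattern was seen in the 5′ v1 and 3′ v2 libraries, where 28 to 46.8% of each other's cell barcodes recurred, against 28.9 to 45.1% of the list. Barcodes with at least 100 UMIs in another library carried 12.6%, 14.0%, 13.7% and 11.1% of the low-UMI sum in 3′ v3 replicates 1 to 4, and 20%, 24.9%, 19.1% and 26.6% of its human UMIs. What makes barcodes recur was not tested, and the results that lead the text were computed again without them.

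**Figure D2:**
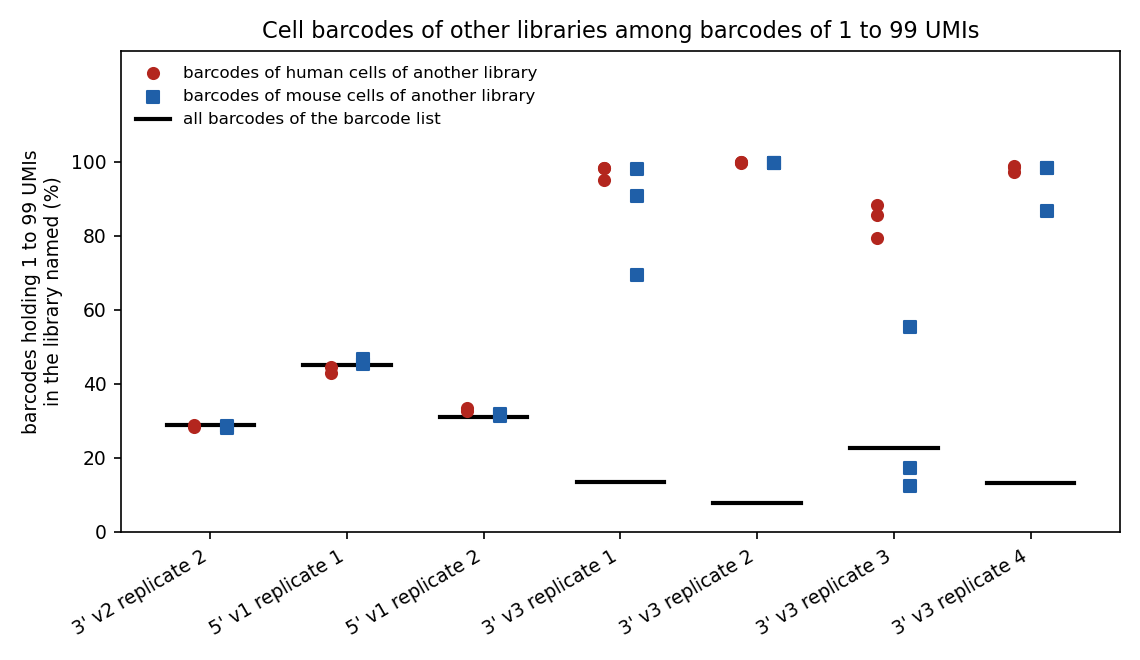
Share of cell barcodes of another library of the same barcode list that held 1 to 99 UMIs in the library named on the x axis (y axis, %), red points for barcodes of human cells and blue squares for barcodes of mouse cells, 1 point per other library, with black bars for all barcodes of the list. The points sit on the bars in 3′ v2 and 5′ v1 and far above them in 3′ v3, except in replicate 3 for mouse-cell barcodes of 2 of the 3 other libraries. Cell barcodes that recurred with over 99 UMIs are not counted in the points.

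The low-UMI barcodes were poorer in human transcripts than the libraries they came from. Human UMIs made up 1.63% of the low-UMI sum in the 3′ v2 library, 10.2% and 10.8% in 5′ v1, and 13.7%, 12.2%, 31.8% and 9.61% in 3′ v3 replicates 1 to 4. The whole libraries held 17.3% in 3′ v2, 31.3% and 29.0% in 5′ v1, and 31.6%, 13.3%, 30.2% and 15.5% in 3′ v3. The low-UMI share lay below the whole library in 6 of 7 libraries and above it in 3′ v3 replicate 3. Against all barcodes of at least 5000 UMIs the exception was 3′ v3 replicate 2, at 12.2% against 11.3%. Replicate 3 was there at 31.8% against 31.9%.

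The human share depended on how many UMIs a barcode held. Among barcodes of 1 to 9 UMIs it was 15.8% in 3′ v2, 32.0% and 24.1% in 5′ v1, and 30.3%, 20%, 30.1% and 18.5% in 3′ v3. Among barcodes of 10 to 99 UMIs it was 1.07% in 3′ v2, 7.79% and 8.48% in 5′ v1, and 8.95%, 10.3%, 40.4% and 7.13% in 3′ v3. The barcodes of fewest UMIs were thus nearer to their library's own mix than those of 10 to 99 UMIs in 6 of 7 libraries, the exception being 3′ v3 replicate 2, and those of 10 to 99 UMIs lay below it in each library but 3′ v3 replicate 3. In that library the mouse-rich barcodes lay higher, with 5.83% human UMIs among 60389 barcodes of 200 to under 500 UMIs.

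**Figure D3:**
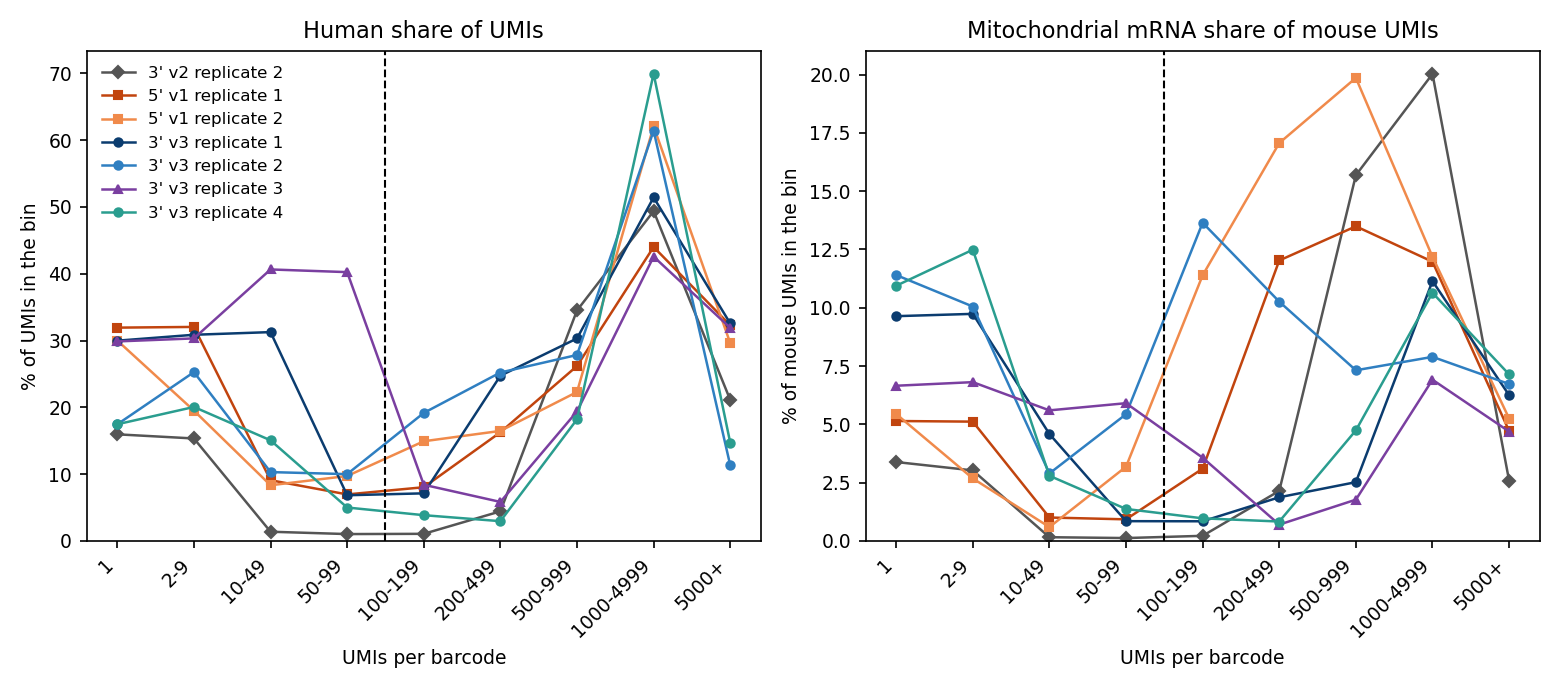
Human share of UMIs (left, %) and mitochondrial mRNA share of mouse UMIs (right, %) in bins of UMIs per barcode (x axis), 1 line per library, with a dashed line at 100 UMIs. Both shares fall from barcodes of 1 UMI to those of 50 to 99 UMIs in most libraries, and in 3′ v3 replicate 3 they fall mainly above 100 UMIs.

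Barcodes of 90 to 99 UMIs, just inside, numbered 2743 in 3′ v2, 2207 and 121 in 5′ v1, and 13082, 100, 635 and 5797 in 3′ v3, and those of 100 to under 110 UMIs, just outside, 1901, 1380, 89, 9794, 71, 698 and 5640 in the same order. Their human shares ran from 4.22 to 21.4% inside and 4.13 to 17.8% outside in 5′ v1 and 3′ v3, and 1.04 against 1.03% in 3′ v2. At the lower limit of cells, 8 to 78 barcodes a library held 4500 to under 5000 UMIs and 8 to 68 held 5000 to under 5500.

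Gene by gene, the low-UMI sum resembled the cells of its library, least so in 3′ v2. Across 7305 mouse genes, Pearson's r of log2 levels between the 2 sums was 0.883 in 3′ v2, 0.947 and 0.942 in 5′ v1, and 0.976, 0.964, 0.982 and 0.957 in 3′ v3. Across 8633 human genes it was 0.773 in 3′ v2, 0.937 and 0.884 in 5′ v1, and 0.955, 0.907, 0.959 and 0.926 in 3′ v3. Genes are not independent replicates, and r falls as depth falls, so these values describe the libraries only. The 3′ v3 library with the mouse profile closest to its cells was replicate 3.

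Tests of single genes asked which transcripts took a larger or smaller share of the low-UMI sum than of the cells, with the library as a block. For mouse genes in 3′ v3, 6 were higher and 6 lower in the low-UMI barcodes (0.0821% of 7305 tested in each direction). Without replicate 3, 2025 were higher (27.7%) and 2123 lower (29%), among them all 12 of the former, whereas 1 to 4 genes were called when any other single library was left out. For 5′ v1, 974 mouse genes were higher (13.3%) and 955 lower (13.1%), or 475 higher and 1010 lower without trimmed-mean scaling, and edgeR called 0 when replicate 1 or replicate 2 of 5′ v1 was left out, with 1364 and 1498 genes at an unadjusted p under 0.05. Both kits share the spread of 1 fit, so that without 3′ v3 replicate 3 the 5′ v1 counts moved too, to 2084 higher (28.5%) and 1715 lower (23.4%). The counts below are read against these percentages.

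Transcripts of the mitochondrial genome, which encode subunits of the respiratory chain, were the class most depleted from the mouse low-UMI sum in 5′ v1 and 3′ v2. They made up 0.230% of mouse UMIs in the low-UMI barcodes of 3′ v2 (exact 95% interval 0.226 to 0.235%) against 2.59% in its cells. They made up 1.27% against 4.72% and 1.24% against 5.26% in the 5′ v1 libraries. In 3′ v3 replicates 1 to 4 the shares were 2.64% against 6.26%, 4.45% against 6.74%, 6.60% against 4.73% and 3.60% against 7.15%. The low-UMI barcodes were poorer in mitochondrial transcripts in 6 of 7 libraries and richer in 3′ v3 replicate 3.

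On the log2 scale, the ratio of the mitochondrial share in the low-UMI sum to that in cells was -3.49 in 3′ v2, -1.99 ± 0.14 (SD, n = 2) in 5′ v1 and -0.59 ± 0.76 (n = 4) in 3′ v3, or -0.94 ± 0.33 (n = 3) without replicate 3. All 13 mitochondrial genes were lower in 5′ v1, with a median log2 fold change of -1.70 beside 0.065 over all genes tested. In 3′ v3, 1 of 13 was lower (median -0.51, beside -0.0022 over all genes), and all 13 were without replicate 3 (median -0.82). The difference between the kits passed the test for 4 of 13 genes, all more depleted in 5′ v1 (1.04% of all genes were called in that direction), and for 11 of 13 without replicate 3 (10.1%). With barcodes of 10 to under 500 UMIs as the low side the difference turned, with a median of 0.36, 11 of 13 genes above 0 and 1 passing, less depleted in 5′ v1 (8.84% of all genes were called in that direction and 11.3% in the other).

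mt-Co2, which encodes a subunit of cytochrome c oxidase, shows the pattern. It stood at 294 CPM (UMIs of the gene per 1000000 UMIs of that species) in the low-UMI sum of 3′ v2 and at 3182 in its cells. It stood at 2182 against 9501 and 2061 against 10732 CPM in 5′ v1, and at 4848 against 12006, 8420 against 13102, 12000 against 8566 and 6616 against 13492 CPM in 3′ v3. The low-UMI sums lay below every cell sum of the same kit in 5′ v1, and in 3′ v3 only replicate 3 went the other way. The fitted log2 fold change was -2.08 ± 0.30 (SE) in 5′ v1 (adjusted p = 0.0025) and -0.51 ± 0.21 in 3′ v3 (adjusted p = 0.13, or -0.81 and 8.9e-06 without replicate 3), and the kits differed by -1.56 ± 0.36 (adjusted p = 0.040). That difference was 0.37 (adjusted p = 0.74) with barcodes of 10 to under 500 UMIs that had fewer than 100 UMIs in every other library.

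mt-Nd4l, a subunit of complex I, was the mitochondrial gene that passed the test in 3′ v3 with all 4 libraries. Its levels there were 201 against 546, 184 against 351, 819 against 1210.3 and 132 against 399 CPM, lower in the low-UMI sum in each. The log2 fold change was -1.02 ± 0.15 (adjusted p = 0.025), and -1.45 ± 0.22 in 5′ v1 (adjusted p = 0.0026).

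The depletion was seen in barcodes of 10 or more UMIs. In barcodes of 1 to 9 UMIs the log2 ratio of the mitochondrial share to that in cells was 0.34 in 3′ v2, 0.12 and -0.47 in 5′ v1, and 0.63, 0.71, 0.51 and 0.69 in 3′ v3. In barcodes of 10 to 99 UMIs it was -4.36 in 3′ v2, -2.31 and -2.61 in 5′ v1, and -2.52, -1.15, 0.29 and -2.12 in 3′ v3. The 2 ranges thus differed in sign in 5 of the 7 libraries, the exceptions being 5′ v1 replicate 2 and 3′ v3 replicate 3. In replicate 3 the mitochondrial share was 0.698% of mouse UMIs among barcodes of 200 to under 500 UMIs, against 4.69% among all barcodes of at least 5000. With barcodes of 10 to under 500 UMIs as the low side, the mean log2 ratio was -2.07 in 3′ v3 and -1.69 in 5′ v1.

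**Figure D4:**
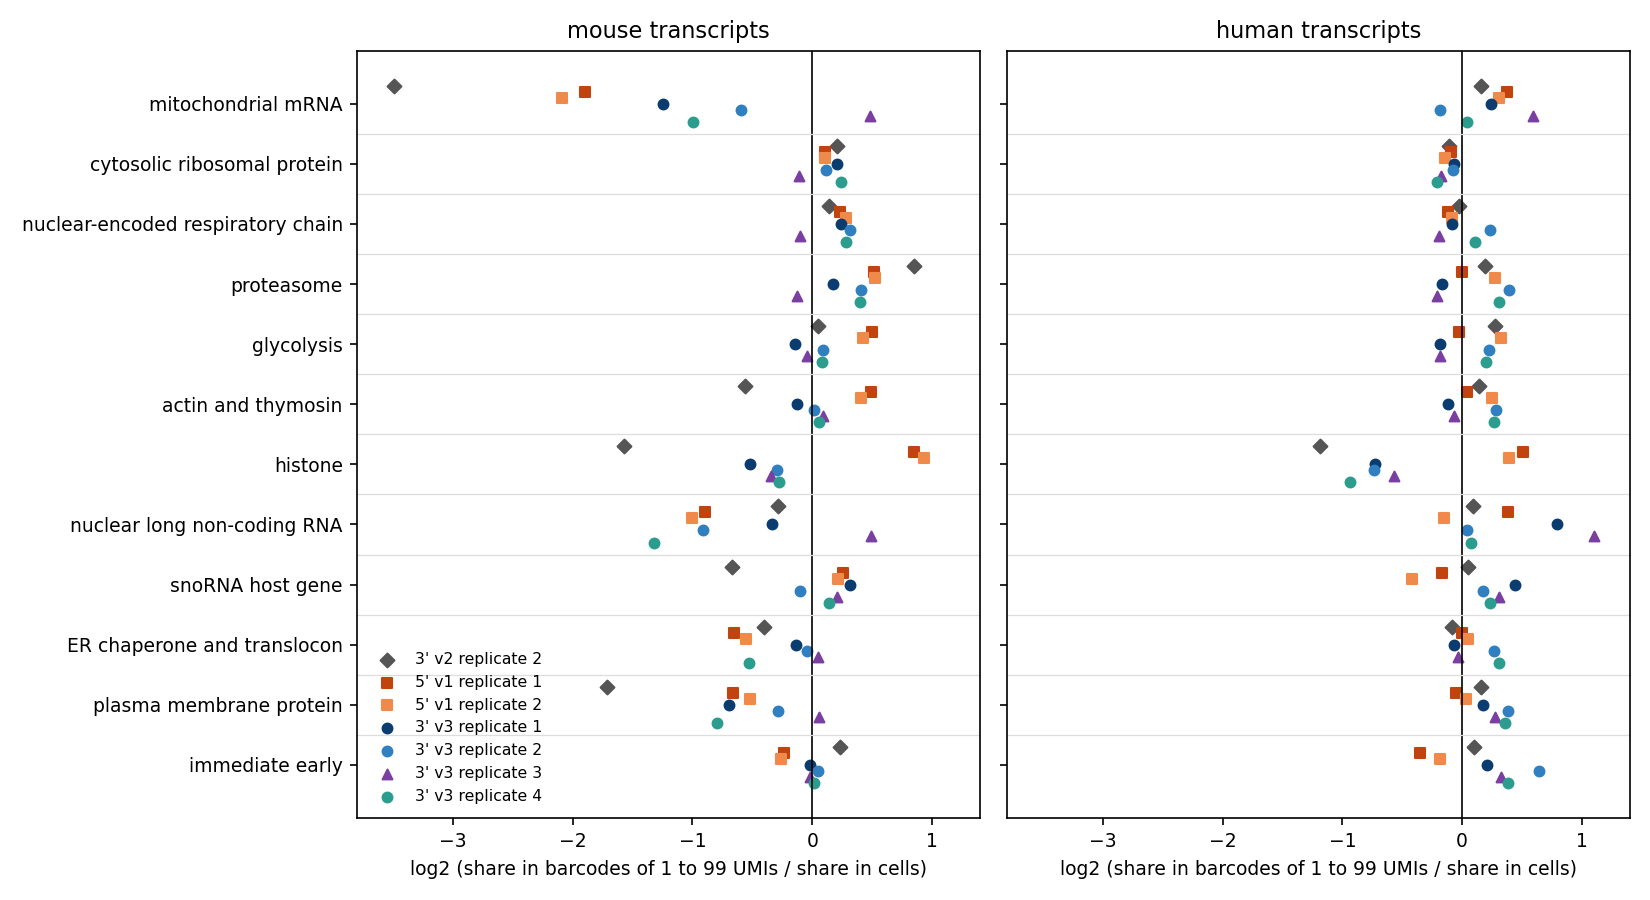
Log2 ratio of a class's share of UMIs in barcodes of 1 to 99 UMIs to its share in cells of the same library (x axis), 1 symbol per library, for mouse (left) and human (right) transcripts. Mouse mitochondrial mRNA lies left of 0 in all libraries but 3′ v3 replicate 3, and histone transcripts lie right of 0 in 5′ v1 and left of 0 in 3′ v3 and 3′ v2 for both species.

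Ribosomal protein genes, the largest class, took 44.2% of mouse UMIs against 38.2% in cells in 3′ v2, 34.0% against 31.5% and 33.9% against 31.6% in 5′ v1, and 32.5% against 28.2%, 29.0% against 26.8%, 27.7% against 29.9% and 31.4% against 26.6% in 3′ v3. The share was higher in the low-UMI barcodes everywhere but in 3′ v3 replicate 3. In 5′ v1, 9 of 79 genes were higher and none lower by edgeR (median 0.31), beside 13.3% of all genes, and 55 were higher without 3′ v3 replicate 3, beside 28.5%. In 3′ v3 none of the 79 passed by edgeR (17 at an unadjusted p under 0.05, and 3 by DESeq2), with a median of 0.24 and all 79 above 0, and 77 were higher without replicate 3 (median 0.37). Rps26, which encodes a protein of the small subunit and has near copies elsewhere in the genome, was at 4971 against 2812, 3670 against 1932, 3751 against 3817 and 4097 against 1854 CPM in 3′ v3. Its log2 fold change was 0.84 ± 0.20 with all libraries (adjusted p = 0.052). It was 1.14 without replicate 3, with no p given, since Rps26 was chosen by that fit.

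Nuclear genes of the respiratory chain, whose messengers are translated in the cytosol, went the other way from the mitochondrial ones in 5′ v1, where 23 of 71 were higher and none lower (median 0.50), or 55 higher without 3′ v3 replicate 3. In 3′ v3 none of 71 passed by edgeR (28 at an unadjusted p under 0.05, and 5 by DESeq2), with a median of 0.28, and 62 were higher without replicate 3 (median 0.45). Cox6c, of cytochrome c oxidase, rose from 841 to 1173 and from 730.1 to 1107 CPM in 5′ v1 (log2 fold change 0.71 ± 0.22, adjusted p = 0.035). Proteasome genes, which encode the protease that degrades ubiquitin-tagged proteins, were higher for 24 of 36 in 5′ v1 (median 0.74). In 3′ v3 none of 36 passed by edgeR (19 at an unadjusted p under 0.05, and 3 by DESeq2), with a median of 0.33, and 31 were higher without replicate 3 (median 0.51). For Psmb3, a core subunit, the low-UMI level was 748 against 294 CPM in 3′ v2, 706 against 436 and 512 against 334 in 5′ v1, and 997 against 729.5, 555 against 319, 728 against 730.3 and 539.8 against 316 in 3′ v3. Its log2 fold change was 0.83 ± 0.24 in 5′ v1 (adjusted p = 0.026) and 0.62 ± 0.17 in 3′ v3 (adjusted p = 0.065, or 0.85 and 8.5e-08 without replicate 3).

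Messengers that are translated at the endoplasmic reticulum or encode its machinery were lower in the mouse low-UMI sum of 5′ v1. Of the plasma membrane proteins, 16 of 34 tested were lower in 5′ v1 and none higher (median -0.69). By barcode size, their share in the 5′ v1 libraries was 0.459% and 0.456% of mouse UMIs in barcodes of 1 UMI. It was 0.299% and 0.304% in those of 10 to 49 UMIs, and 0.464% and 0.456% in all barcodes of at least 5000. The lower share was thus not seen in barcodes of 1 UMI. In 3′ v3 none of 34 passed by edgeR (17 at an unadjusted p under 0.05, and 9 by DESeq2), with a median of -0.35, and without replicate 3, 25 of 32 were lower and 1 higher (median -0.52). The share of the list in replicate 3 was 0.519% against 0.497% in cells. Their share of mouse UMIs in 3′ v2 was 0.132% in the low-UMI barcodes (exact 95% interval 0.129 to 0.136%) against 0.435% in cells. Laptm5, a lysosomal membrane protein of blood cells, had -0.92 ± 0.17 in 3′ v3 with all libraries (adjusted p = 0.051). It had -1.15 without replicate 3, with no p given, since Laptm5 was chosen by that fit.

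Chaperones and translocon subunits of the endoplasmic reticulum were lower for 16 of 31 genes in 5′ v1 (median -0.73), or for 25, with 1 higher, without 3′ v3 replicate 3. In 3′ v3 none of 31 passed by edgeR (9 at an unadjusted p under 0.05, and 1 by DESeq2), with a median of -0.18, and without replicate 3, 14 were lower and 4 higher. H2-K1, a class I histocompatibility antigen of the plasma membrane list, was at 212 against 441 and 220.3 against 421 CPM in 5′ v1 (log2 fold change -0.82 ± 0.23, adjusted p = 0.023). Hsp90b1, the chaperone of the endoplasmic reticulum, was at 60.3 against 505 CPM in 3′ v2 and at 223 against 498 and 221 against 381 CPM in 5′ v1, where its log2 fold change was -0.80 ± 0.29 (adjusted p = 0.054).

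Markers of the 2 mouse lines did not keep the levels they had in cells. EL4 markers, a list of T cell genes, made up 0.0399% of mouse UMIs in the low-UMI barcodes of 3′ v2 against 0.232% in cells, 0.164% against 0.215% and 0.209% against 0.229% in 5′ v1, and 0.121% against 0.224%, 0.124% against 0.192%, 0.185% against 0.187% and 0.107% against 0.194% in 3′ v3. IVA12 markers, a list of B cell genes, made up 0.103% against 0.0777% in 3′ v2, 0.205% against 0.342% and 0.173% against 0.280% in 5′ v1, and 0.296% against 0.210%, 0.234% against 0.195%, 0.212% against 0.235% and 0.136% against 0.191% in 3′ v3. EL4 markers were lower in the low-UMI sum of every library, by little in 3′ v3 replicate 3, and IVA12 markers were lower in 5′ v1 and mixed in 3′ v3. Of 14 EL4 markers tested, none passed in 3′ v3 by edgeR (8 at an unadjusted p under 0.05, and 7 by DESeq2) and 12 were lower without replicate 3. In 5′ v1, 1 EL4 marker was higher and 2 lower, or 3 and 5 without 3′ v3 replicate 3, and 4 of 7 IVA12 markers were lower, or 3 with 1 higher.

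Thy1, a surface glycoprotein of T cells and one of the EL4 markers, was at 70.0 against 521 CPM in 3′ v2, 229.7 against 467 and 319.8 against 451 in 5′ v1, and 163 against 346, 194 against 449, 285 against 226 and 157 against 417 in 3′ v3. It was lower in each library but 3′ v3 replicate 3, with a log2 fold change of -1.06 without that library (adjusted p = 2.1e-08), -0.74 ± 0.21 with it (adjusted p = 0.072) and -0.59 ± 0.29 in 5′ v1 (adjusted p = 0.15). Several EL4 markers encode membrane proteins, and the part of the mix of lines in the membrane values was not tested.

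Gm42418 and AY036118, which lie over the mouse ribosomal RNA locus and may count reads of ribosomal RNA, were the most enriched mouse genes of at least 100 CPM in both kits. Gm42418 (ENSMUSG00000098178) stood at 14654 against 1663 and 18857 against 2009 CPM in 5′ v1, and at 1040 against 193, 14857 against 1154, 1912 against 453 and 7692 against 1347 CPM in 3′ v3. In the 3′ v2 library it was at 53.1 against 134 CPM. It was higher in the low-UMI sum of all 6 libraries of 5′ v1 and 3′ v3 and lower in the 3′ v2 library, and its level differed widely between 3′ v3 libraries. The log2 fold change was 3.36 ± 0.35 in 5′ v1 (adjusted p = 0.00043) and 2.79 ± 0.24 in 3′ v3 (adjusted p = 0.00031, or 3.05 and 0.0043 without replicate 3). AY036118 had 2.54 ± 0.25 in 5′ v1 (adjusted p = 0.00039) and 1.38 ± 0.18 in 3′ v3 (adjusted p = 0.0083).

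By barcode size, Gm42418 in 5′ v1 replicate 1 was at 5023 CPM in barcodes of 1 UMI, 17079 in those of 10 to 49 and 14391 in those of 50 to 99. In 3′ v3 replicate 2 it was at 3911, 17458 and 12371 CPM in the same bins, and in 3′ v3 replicate 1 at 1304, 802 and 946. In 3′ v3 replicate 3 it was at 1147 CPM in barcodes of 50 to 99 UMIs. Each of these values was above the same library's level in barcodes of at least 5000 UMIs, which was 2457, 1275, 250.04 and 666 CPM in the order named. Gm26917, another gene over ribosomal RNA, went apart from the pair, at 124 against 257 and 180.4 against 334 CPM in 5′ v1 and at 357 against 150.3, 543 against 430.4, 1173 against 476 and 665 against 592 CPM in 3′ v3. The kits differed for it by -1.67 ± 0.31 on the log2 scale (adjusted p = 0.016). This turned to 0.57 (adjusted p = 0.18) with barcodes of 10 to under 500 UMIs as the low side.

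**Figure D5:**
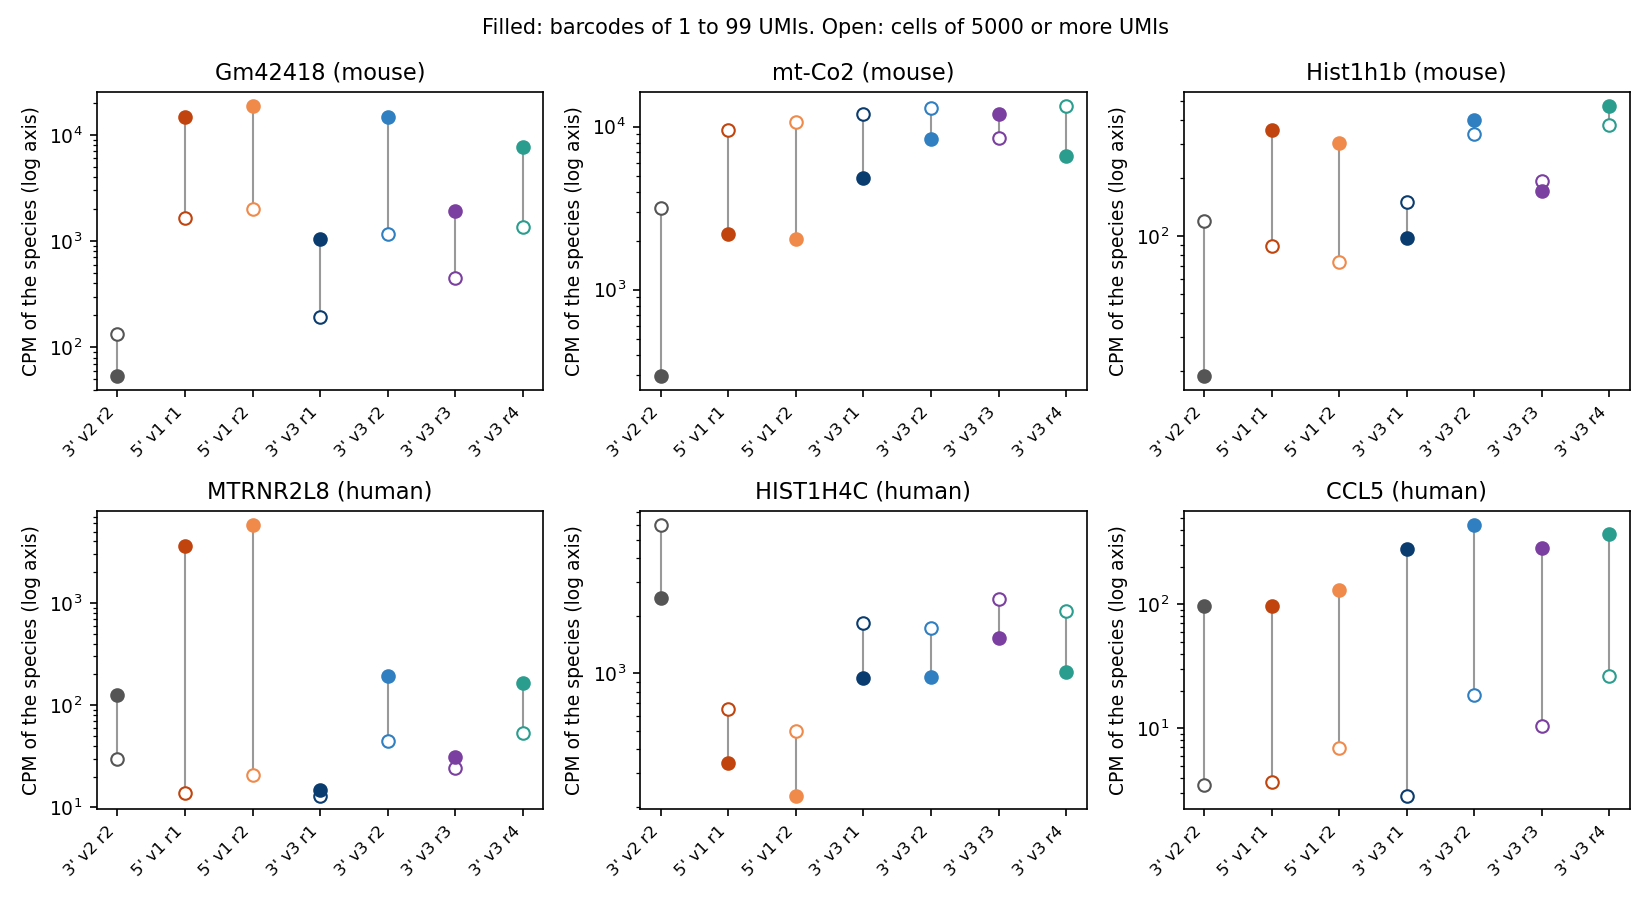
Level of 6 genes in each library (y axis, CPM of the species, log scale), filled points for barcodes of 1 to 99 UMIs and open points for cells of at least 5000 UMIs, joined within a library. Gm42418 and MTRNR2L8 are higher in the low-UMI barcodes of both 5′ v1 libraries, mt-Co2 is lower there, Hist1h1b is higher there only in 5′ v1 and 2 of the 3′ v3 libraries, and CCL5 is higher in all 7 libraries.

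The summed share of histone transcripts differed between the kits in direction, in both species. Replication-dependent histone messengers end in a stem-loop in place of a poly(A) tail, and the list was made of all genes with their names. Their share of mouse UMIs was 0.131% in the low-UMI barcodes of 3′ v2 against 0.387% in cells, 0.112% against 0.0623% and 0.106% against 0.0556% in 5′ v1, and 0.0579% against 0.0828%, 0.125% against 0.153%, 0.123% against 0.156% and 0.128% against 0.155% in 3′ v3. The human shares were 0.292% against 0.666% in 3′ v2, 0.224% against 0.158% and 0.170% against 0.129% in 5′ v1, and 0.137% against 0.228%, 0.187% against 0.312%, 0.213% against 0.316% and 0.199% against 0.381% in 3′ v3. Both 5′ v1 libraries had more in the low-UMI sum and every 3′ library less, in each species. In 3′ v3 the fall of the share came in large part from Hist1h2ap in mouse and HIST1H4C in human, whose levels are given below. Of 13 mouse histone genes tested, 6 had a log2 fold change above 0 in 3′ v3 and 10 in 5′ v1. Of 16 human ones, 3 and 14 did.

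The mean log2 ratio of the histone share was 0.89 ± 0.060 (SD, n = 2) in 5′ v1 and -0.36 ± 0.11 (n = 4) in 3′ v3 for mouse, and 0.45 ± 0.081 and -0.75 ± 0.15 for human. In mouse 3′ v3, 1 of 13 genes tested was lower, and without replicate 3, 4 were higher and 6 lower. In mouse 5′ v1, 7 of 13 were higher and 2 lower, and the kit difference passed for 7 of 13, all higher in 5′ v1 (1.92% of all mouse genes were called in that direction). Without 3′ v3 replicate 3 it passed for 7 higher (13.4%) and 1 lower. In human, 4 of 16 were higher and 1 lower in 5′ v1 (0.487% and 0.0695% of 8633 genes tested), 5 of 16 were lower in 3′ v3 (0.313%), and 7 of 16 differed between kits (0.29%).

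Linker histones, which bind the DNA between nucleosomes, were among those that rose in 5′ v1. Hist1h1b was at 353 against 88.5 and 302 against 73.1 CPM in 5′ v1, at 97.6 against 150.2, 397 against 337, 172 against 193 and 474 against 374 CPM in 3′ v3, and at 18.7 against 119 CPM in 3′ v2. It was higher in the low-UMI sum in both 5′ v1 libraries and in 2 of 4 of 3′ v3, and lowest in 3′ v2. Its log2 fold change was 2.20 ± 0.24 in 5′ v1 (adjusted p = 0.00048) and the kits differed by 2.13 ± 0.29 (adjusted p = 0.0043). For Hist1h1e the kits differed by 2.03 ± 0.20 (adjusted p = 0.00055). Among human genes, HIST1H1D was at 507 against 216 and 463 against 189 CPM in 5′ v1, and at 107 against 145, 281 against 330.5, 163 against 210.2 and 201 against 399.9 CPM in 3′ v3. It was higher in both 5′ v1 libraries (1.25 ± 0.19, adjusted p = 0.00031) and lower in all 4 of 3′ v3 (-0.52 ± 0.14, adjusted p = 0.025). The kits differed by 1.77 ± 0.24 for HIST1H1D (adjusted p = 8.9e-05) and by 1.77 ± 0.28 for HIST1H1E (adjusted p = 0.00079).

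Core histones did not all follow. HIST1H4C, a histone H4 gene, was at 2490 against 5986 CPM in 3′ v2, 341 against 647 and 229 against 496 in 5′ v1, and 945 against 1826, 960.2 against 1726, 1539 against 2438 and 1021 against 2122 in 3′ v3. It was lower in the low-UMI sum of all 7 libraries, by -1.02 ± 0.16 in 5′ v1 (adjusted p = 0.00059) and -0.89 ± 0.10 in 3′ v3 (adjusted p = 3.8e-07) on the log2 scale. Mouse Hist1h2ap, an H2A gene, was at 147 against 330.2, 312 against 575, 666 against 937 and 262 against 533 CPM in 3′ v3 (-0.78 ± 0.14, adjusted p = 0.048), and under 14 CPM in both 5′ v1 sums, so that this kit gave it few counts.

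Nuclear long non-coding RNAs, which are kept in the nucleus, were lower in mouse 5′ v1 for 2 of 3 genes tested (median -1.67). In mouse 3′ v3 none of 3 passed by edgeR (1 at an unadjusted p under 0.05, and 0 by DESeq2), with a median of -0.40, and all 3 were lower without replicate 3 (median -0.81). Kcnq1ot1, the antisense transcript of an imprinted locus, was at 22.1 against 84.7 and 27.2 against 109.1 CPM in 5′ v1 (-1.80 ± 0.47, adjusted p = 0.017), but with barcodes of 1 to 9 UMIs its log2 fold change was 0.16 (adjusted p = 0.97). Neat1, the scaffold of paraspeckles, was at 38.1 against 122 and 38.0 against 155 CPM (-1.67 ± 0.40, adjusted p = 0.013). Malat1, a speckle RNA, was at 2698 against 3307, 3773 against 7014, 8453 against 6126 and 3182 against 7888 CPM in 3′ v3 (-0.40 ± 0.21, adjusted p = 0.20). Kcnq1ot1 lies antisense to a coding gene, and the files do not state whether strand was used. Of 5 human genes of this class, 1 was higher in 3′ v3 (median 0.44) and 1 in 5′ v1. Human NEAT1 was at 419.6 against 261, 812 against 698, 638 against 278 and 1067 against 730.2 CPM in 3′ v3, higher in each (0.66 ± 0.14, adjusted p = 0.0042, or 0.43 and 0.062 without replicate 3).

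Hosts of small nucleolar RNAs, spliced transcripts whose introns carry those RNAs and whose remainders are mostly degraded, were higher in 3′ v3 for 3 of 6 human genes tested and 1 of 3 in mouse, or 2 and 2 without replicate 3. Human SNHG9 was at 57.2 against 13, 41.4 against 12.4, 58.3 against 22.6 and 77.4 against 10.2 CPM (1.98 ± 0.22, adjusted p = 3.9e-07), and SNHG12 at 26.4 against 14.9, 32.5 against 11, 28.6 against 15.6 and 44.0 against 11 CPM (1.21 ± 0.24, adjusted p = 0.0015). Mouse Snhg9 was at 19.4 against 8.40, 41.4 against 17.4, 29.8 against 20.9 and 30.5 against 11.5 CPM (1.23 ± 0.19, adjusted p = 0.025). Each of these was higher in the low-UMI sum of all 4 libraries. Of all human genes, 4.2% were called higher in 3′ v3, and fewer against cells of at least 1000 UMIs. In 5′ v1 none of the 6 human hosts passed by edgeR (2 at an unadjusted p under 0.05, and 0 by DESeq2), with a median of -0.38. Of the 3 mouse hosts, 1 was higher in 5′ v1, or 2 without 3′ v3 replicate 3, and the median was 0.63. SNHG8 was at 178 against 124, 189 against 125, 189 against 127.6 and 186 against 131 CPM in 3′ v3 and at 133 against 173 and 89.5 against 183 CPM in 5′ v1, a kit difference of -1.16 ± 0.26 (adjusted p = 0.033).

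In 5′ v1, mouse genes of glycolysis and of the actin cytoskeleton were also higher. Of 14 glycolytic genes tested 8 were higher and 1 lower (median 0.65), and of 30 actin and thymosin genes 14 were higher and none lower (median 0.48), or 21 higher and 2 lower without 3′ v3 replicate 3. Gapdh, a glycolytic dehydrogenase, was at 1306 against 716 and 1009 against 685 CPM (0.89 ± 0.20, adjusted p = 0.010). Actb, cytoplasmic actin, was at 1882 against 638 and 1370 against 520.2 CPM (1.65 ± 0.20, adjusted p = 0.00061). In 3′ v3 no gene of either list passed by edgeR (1 and 6 at an unadjusted p under 0.05, and 0 and 1 by DESeq2). Without replicate 3, 5 glycolytic genes were higher there, and 14 actin genes were higher and 4 lower, beside 27.7% and 29% of all genes. The 3′ v3 sums overlapped for Actb, at 3459 against 3813, 2569 against 2882, 4614 against 3175 and 2381 against 2695 CPM (0.13 ± 0.14, adjusted p = 0.52), and the kits differed for it by 1.53 ± 0.24 (adjusted p = 0.0077).

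Cytosolic chaperones were higher for 7 of 23 mouse genes in 5′ v1 (median 0.44) and genes of mitosis for 10 of 36, with 2 lower (median 0.36). Without 3′ v3 replicate 3 these were 13 of 23, and 19 of 36 with 6 lower. Of 41 translation factors, 6 were higher and 1 lower (median 0.20), near the share of all genes, or 19 and 3 without that library. Immediate early genes, which respond fast to signals, were higher for 2 and lower for 1 of 14 (median -0.12). The lower one was Jund, a subunit of AP-1, at 129.7 against 289 and 148 against 332 CPM (-0.98 ± 0.20, adjusted p = 0.0077). Of 93 zinc finger genes 4 were higher and 10 lower, or 13 and 28 of 95 without 3′ v3 replicate 3. Of 227 clone-named or predicted genes 13 were higher and 24 lower, or 44 and 46 of 226. In 3′ v3 edgeR called no chaperone, mitosis gene or translation factor (3, 6 and 16 at an unadjusted p under 0.05). DESeq2 called 0, 2 and 3 of them. Without replicate 3, 14 of 23 chaperones, 14 of 36 mitosis genes and 23 of 41 translation factors were higher there by edgeR. Lower were 2, 7 and 3.

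The mouse genes with the largest rise in 5′ v1 apart from those above were Anxa2, a membrane-binding annexin, Uchl1, a deubiquitinase, Lgals9, a galectin, and S100a4, a calcium-binding protein. All 4 were higher in EL4-like cells, where 5′ v1 replicate 1 held 168, 138, 183 and 145 CPM of them in that order, than in IVA12-like cells, at 1.4, 0.742, 28.6 and 0.660 CPM. Anxa2 was at 337 against 95 and 247 against 80.1 CPM in the 2 sums (1.90 ± 0.18, adjusted p = 0.00020). In 3′ v3 it was at 203 against 289, 135 against 149, 265 against 249 and 127 against 155 CPM, which did not pass (adjusted p = 0.57), and the kits differed by 2.00 ± 0.21 (adjusted p = 0.00093). The kit difference of Lgals9 was 2.05 ± 0.25 (adjusted p = 0.0018). Both low-UMI levels of Anxa2 in 5′ v1 lay above the level in EL4-like cells of the same library, 168 and 127.5 CPM, and so above either line.

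Taf10, a subunit of the general transcription factor TFIID, fell the most in 5′ v1 among genes of at least 100 CPM outside the mitochondria. It was at 67.2 against 288 and 64.0 against 296 CPM in 5′ v1 (-1.98 ± 0.21, adjusted p = 0.00045), and at 509 against 428, 438 against 407, 362 against 384 and 468 against 382 CPM in 3′ v3 (0.26 ± 0.14, adjusted p = 0.21). The kits differed by -2.24 ± 0.25 (adjusted p = 0.00095). Its human counterpart TAF10 was at 143 against 279.8 and 119 against 324 CPM in 5′ v1 (-1.17 ± 0.22, adjusted p = 0.0055) and did not pass in 3′ v3 (-0.18 ± 0.14, adjusted p = 0.57), and for it the kit difference was -0.99 ± 0.26 (adjusted p = 0.11). The low-UMI levels of Taf10 in 5′ v1 lay below those of both lines, at 121 and 136 CPM in EL4-like and 502 and 563 CPM in IVA12-like cells of the 2 libraries.

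Of the human genes in 3′ v3, 363 were higher and 27 lower in the low-UMI sum (4.2% and 0.313% of 8633), and 254 of these 390 were also called without replicate 3, where 270 were higher (3.1%) and 107 lower (1.23%). For 5′ v1, 42 were higher (0.487%) and 6 lower (0.0695%), and for the kit difference 25 were higher and 15 lower in 5′ v1 relative to 3′ v3 (0.29% and 0.174%).

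Among the human genes that rose in 3′ v3 were genes of TALL-104, and the choice of cells bears on them directly. TALL-104-like barcodes had a median of 1910 to 2751 UMIs per library, under the limit for cells, so the human cell sum was mostly Jurkat-like. Jurkat-like barcodes had medians of 10077.5 to 18844 UMIs and numbered 267 in 3′ v2, 1359 and 624 in 5′ v1 and 292 to 3037 in 3′ v3. TALL-104-like barcodes numbered 50 in 3′ v2, 72 and 33 in 5′ v1 and 268 to 1211 in 3′ v3.

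TALL-104 markers, a list of genes of cytotoxic T cells, made up 0.0626% of human UMIs in the low-UMI barcodes of 3′ v2 against 0.00922% in cells, 0.0435% against 0.0102% and 0.0418% against 0.0118% in 5′ v1, and 0.136% against 0.0241%, 0.209% against 0.0252%, 0.114% against 0.0233% and 0.178% against 0.0310% in 3′ v3. All 7 libraries were higher in the low-UMI sum. Only 12 of the 28 markers reached the mean of 10 CPM needed for the fit. That mean includes the low-UMI sums, where these genes were high, so the calls among the 12 are not counted here. Against barcodes of at least 1000 UMIs as the cells, the mean log2 ratio of the list fell from 2.59 to 0.30 in 3′ v3 and from 1.96 to 0.91 in 5′ v1. Jurkat markers were at 0.129% against 0.133% in 3′ v2, 0.227% against 0.215% and 0.215% against 0.203% in 5′ v1, and 0.274% against 0.292%, 0.306% against 0.330%, 0.268% against 0.283% and 0.283% against 0.326% in 3′ v3, and none of 12 passed in either kit by edgeR (1 in 3′ v3 and 2 in 5′ v1 at an unadjusted p under 0.05, and 0 by DESeq2).

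CCL5, a chemokine that cytotoxic T cells secrete, was at 97.4 against 3.51 CPM in 3′ v2, 97.3 against 3.66 and 129 against 6.96 in 5′ v1, and 279 against 2.86, 437 against 18.5, 286 against 10.3 and 370.5 against 26.5 in 3′ v3. It was higher in all 7 low-UMI sums. The log2 fold change in 3′ v3 was 4.88 ± 0.48 and in 5′ v1 4.48 ± 0.97. No p is given for CCL5 or NKG7, since the limit for cells left most TALL-104-like barcodes out and the filter used the low-UMI sums. In 3′ v3 replicate 1, TALL-104-like barcodes held 4044 CPM of it and Jurkat-like ones 1.16. Against cells of at least 1000 UMIs its log2 fold change in 3′ v3 was 0.15.

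NKG7, a protein of cytotoxic granules, was at 220.1 against 41.1, 349 against 47.2, 146 against 38.0 and 283 against 50.4 CPM in 3′ v3. Its log2 fold change was 2.40 ± 0.15 there and 2.5 ± 0.33 in 5′ v1. CD52, a surface glycoprotein of lymphocytes, had 1.88 ± 0.13, IL32, a cytokine of T cells, 1.70 ± 0.12 and HLA-B, a class I histocompatibility antigen, 1.03 ± 0.13 in 3′ v3. Against cells of at least 1000 UMIs these were 0.18 for NKG7 (1.22 in 5′ v1), -0.0084 for CD52, 0.23 for IL32 and 0.22 for HLA-B. The rise of these 4 genes in 3′ v3 thus rested on which barcodes counted as cells, so no p is given for them. IL32 was at 1131 against 276, 1495 against 411, 734 against 276 and 1178 against 412 CPM in 3′ v3 and at 282 against 269.7 and 333 against 248 CPM in 5′ v1, a kit difference of -1.47 ± 0.23, or -0.27 against cells of at least 1000 UMIs.

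MYH9, the heavy chain of non-muscle myosin, was at 220.1 against 83.7, 331 against 261, 393 against 92.9 and 529.5 against 273 CPM in 3′ v3 (1.21 ± 0.17, adjusted p = 3.1e-05), and 1.07 against cells of at least 1000 UMIs. With barcodes of 10 to under 500 UMIs as the low side its log2 fold change was -0.059. Human plasma membrane proteins, with 10 of 38 higher in 3′ v3 (median 0.19), held a mean log2 ratio of 0.30 ± 0.095 (SD, n = 4), where the mouse list had -0.43 ± 0.39, and the human ratio was 0.02 against cells of at least 1000 UMIs. Of 14 human immediate early genes 5 were higher in 3′ v3 (median 0.49), JUND among them (0.48 ± 0.13, adjusted p = 0.023), or 3 without replicate 3, and their mean log2 ratio was 0.39 ± 0.19, or 0.12 against cells of at least 1000 UMIs.

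Human mitochondrial transcripts made up 3.37% of human UMIs in 3′ v2 (exact 95% interval 3.24 to 3.51%) against 3.03% in cells, 6.16% against 4.76% and 7.0% against 5.66% in 5′ v1, and 7.51% against 6.36%, 9.29% against 10.6%, 7.36% against 4.88% and 10.8% against 10.5% in 3′ v3. The share was higher in 6 of 7 libraries, and lower in 3′ v3 replicate 2. In 3′ v3 none of 13 genes passed by edgeR (4 at an unadjusted p under 0.05, and 0 by DESeq2), with a median of 0.15, or -0.02 without replicate 3, where none passed either. With barcodes of 10 to under 500 UMIs as the low side, 11 of 13 were lower and 2 higher in 3′ v3 (median -0.54, mean log2 ratio -0.58), where 4.24% and 8.28% of all human genes were called. In 5′ v1, 3 of 13 were higher, 5 without 3′ v3 replicate 3 (0.586% of all human genes were called higher there and 0.345% lower), and 11 of 13 in that wider range (1.69% and 0.41%). MT-ND5, a subunit of complex I, was at 3538 against 1427 and 4060 against 1742 CPM in 5′ v1 (1.26 ± 0.14, adjusted p = 9e-07), and the kits differed by 1.34 ± 0.17 (adjusted p = 3.4e-05). MT-ND4 had 1.02 ± 0.12 (adjusted p = 4.1e-06) and MT-ND2 0.89 ± 0.14 (adjusted p = 0.00039) in 5′ v1, while MT-CO2 had 0.13 ± 0.12 (adjusted p = 0.77).

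MTRNR2L8 and MTRNR2L12, nuclear copies of the mitochondrial gene of the large ribosomal RNA, were among the human genes that were higher in 5′ v1. MTRNR2L8 reached the mean of 100 CPM for naming only through the low-UMI sums, since its cell sums in the fit held at most 53.5 CPM. Their sequence is nearly that of the mitochondrial RNA, so a read may come from either. MTRNR2L8 was at 3640 against 14.0 and 5816 against 21.0 CPM in 5′ v1, at 14.7 against 13, 195 against 44.7, 30.9 against 24.1 and 165 against 53.5 CPM in 3′ v3, and at 125 against 29.8 CPM in 3′ v2. Both 5′ v1 libraries stood far above the others. The log2 fold change of MTRNR2L8 was 8.06 ± 0.34 in 5′ v1 and 1.26 ± 0.25 in 3′ v3, and the kits differed by 6.80 ± 0.38. Against cells of at least 1000 UMIs these were 7.07, 0.78 and 6.29. No p is given for MTRNR2L8, since it reached the naming limit only through the low-UMI sums. For MTRNR2L12 the kit difference was 4.54 ± 0.26 (adjusted p = 2e-12).

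The CPM of MTRNR2L8 in the 5′ v1 libraries was higher in barcodes of 50 to under 200 UMIs than in smaller ones or in those of at least 5000. It was at 253 CPM in barcodes of 1 UMI, 1768 in those of 10 to 49, 8049 in those of 50 to 99, 13883 in those of 100 to under 200 and 17.1 in those of at least 5000 UMIs of replicate 1. In replicate 2 the same bins held 357, 4354, 38907, 17556 and 22.3 CPM. Mitochondrial mRNA rose in the same barcodes, to 20% of human UMIs at 100 to under 200 UMIs in replicate 1 and 37.8% in replicate 2, against 4.78% and 5.67% in barcodes of at least 5000 UMIs. TALL-104-like cells of 5′ v1 replicate 1 held 2281 CPM of MTRNR2L8 and Jurkat-like cells 8.35. The part of these barcodes in the class share was not tested.

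Ribosomal protein transcripts in the human low-UMI sum made up 20.2 to 23.3% of human UMIs against 22.3 to 24.6% in cells in 3′ v3. Of 78 genes tested, 5 were lower in 3′ v3 and none higher (median -0.13), or 8 lower without replicate 3. With barcodes of 10 to under 500 UMIs as the low side, 19 of 78 were higher and 1 lower (median 0.17), and 67 were above 0. None of the 78 passed in 5′ v1 by edgeR (13 at an unadjusted p under 0.05, and 1 by DESeq2), with a median of -0.12, and 4 were lower without 3′ v3 replicate 3. Of the human nuclear genes of the respiratory chain (72 tested) and the proteasome (36 tested), none was called in either kit by edgeR or DESeq2, and at an unadjusted p under 0.05 only 6 of the proteasome in 5′ v1 passed. In that wider range, 16 of 72 respiratory chain genes were higher in 3′ v3 and none lower (median 0.20), and of the proteasome 4 of 36 were higher and 1 lower in 3′ v3 and 3 higher in 5′ v1. Glycolysis (14 tested) and cytosolic chaperones (26 tested) had none called by either tool, with 1 and 1 in 3′ v3 and 3 and 4 in 5′ v1 at an unadjusted p under 0.05. In the range of 10 to under 500 UMIs, 2 glycolytic genes were higher in each kit, and 2 chaperones were higher and 1 lower in 3′ v3. The human low-UMI sums held fewer UMIs, 71885 to 875134 against 1657059 to 4494244 of mouse, and a difference between species was not tested.

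Among other human genes, DPP7, a lysosomal peptidase, was at 141 against 90.3, 148 against 80.1, 134 against 82.7 and 129.8 against 69.1 CPM in 3′ v3 and at 61.5 against 118 and 84.6 against 127 CPM in 5′ v1. It was higher in 3′ v3 (0.75 ± 0.14, adjusted p = 0.00054), and the kits differed by -1.55 ± 0.28 (adjusted p = 0.0047). C9orf142, a DNA repair factor also called PAXX, had a kit difference of -1.08 ± 0.25 (adjusted p = 0.049). UBE2S, a ubiquitin-conjugating enzyme of mitosis (-0.87 ± 0.16, adjusted p = 0.0036), TXNL4A, a splicing factor (-0.91 ± 0.19, adjusted p = 0.014), and GLRX5, a mitochondrial glutaredoxin (-1.04 ± 0.23, adjusted p = 0.025), were lower in 5′ v1. The list of markers of lineages that are in none of the 4 lines, such as hemoglobins and collagens, held 0 to 4 UMIs per species in each low-UMI sum.

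Taking out the barcodes with at least 100 UMIs in another library left 55 mouse genes higher and 92 lower in 3′ v3 (0.754% and 1.26% of 7298), which included the 12 called with them. In human it left 565 higher and 327 lower in 3′ v3 (6.5% and 3.76% of 8697), which included 377 of the 390.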

How the data were processed

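UMI counts per gene and barcode were taken as deposited by the authors for 7 libraries. Per the submitters' processing notes and the study's methods, the files came from Cell Ranger 3.0.2 with a joint reference of hg19 and mm10 named after version 1.2.0, and the study downsampled reads before counting. All barcodes with a UMI were kept, with no doublet or cell calling.

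Counts were summed per library and species over barcodes of 1 to 99 UMIs and over cells (at least 5000 UMIs, over 80% of the species). Line-like barcodes held at least 1000 UMIs and 5 marker UMIs, 80% of them of that line. Sums of 3′ v3 and 5′ v1 were fitted with edgeR 4.0.16 (quasi-likelihood, R 4.3.3, TMM within species, library as a block, genes with a mean of at least 10 CPM), with p adjusted by Benjamini-Hochberg over all genes tested and a threshold of 0.05. DESeq2 1.42.0 was an alternative. Fold changes compare shares of a sum, not amounts. Intervals are exact binomial. Sums were built in Python 3.11.15 with numpy 2.4.6, pandas 2.3.3 and scipy 1.17.1. The fit was tested on simulated data. At a log2 change of 1 it called 94 of 94 changed mouse genes in 3′ v3 and 92 of 94 in 5′ v1. Of 97 human genes it called 83 and 29. At a log2 change of 0.5 it called 71 and 26 of 97 mouse genes, and 24 and 1 of 91 human genes. Of unchanged genes it called 12 of 7128 in mouse in each kit, and 4 and 3 of 7927 in human. Each simulated library had a shift shared by both its sums. None had a low-UMI sum that moved apart, as in 3′ v3 replicate 3. These counts therefore do not give the share of real changes that the fit finds in these libraries.

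Named were, per species and kit, the 8 called genes with the largest change in each direction among those of at least 100 CPM that moved alike in every library, the 4 largest each way for the kit difference, up to 4 members of each list by level, and all tested members of lists of at most 13. Rps26 and Laptm5 came from the same rule without 3′ v3 replicate 3, chosen after their values were seen. Members and lists were chosen with earlier results of these data known. In the 3′ v2 kit there was 1 library and no test.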

Additional observations from a re-analysis of the deposited data

Results flagged for a closer look

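Of 42 groups of 4 libraries checked for a library far from the others, 1 was flagged, and chance alone flags about 1 in 20 such groups. Barcodes of 1 to 9 UMIs made up 84% of the low-UMI sum of 3′ v3 replicate 3.

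Classes that moved one way in every 5′ v1 library and the other way in every 3′ v3 library were flagged, and the difference was not tested for them. The mean log2 ratio was higher in 5′ v1 than in 3′ v3 by 1.25 for mouse histones, 1.2 for human histones, 0.43 for human mitosis genes and 0.20 for human Jurkat markers. For human hosts of small nucleolar RNAs the difference was -0.58, and for human immediate early genes -0.66.

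The difference between kits in the change from cells to low-UMI barcodes passed the interaction test for 216 mouse and 40 human genes. Of the mouse genes named, it was positive, higher in 5′ v1, for Hist1h1b (2.13 on the log2 scale), Lgals9 (2.05), Hist1h1e (2.03) and Anxa2 (2.00), and negative for Taf10 (-2.24), Gm26917 (-1.67), mt-Atp6 (-1.59) and mt-Co2 (-1.56). With barcodes of 10 to under 500 UMIs as the low side, the difference of Gm26917 turned to 0.57, and without shared barcodes as well those of mt-Atp6 and mt-Co2 turned to 0.23 and 0.37. Of the human genes named, it was positive for MTRNR2L8 (6.80), MTRNR2L12 (4.54), HIST1H1D (1.77) and HIST1H1E (1.77), and negative for DPP7 (-1.55), IL32 (-1.47), SNHG8 (-1.16) and C9orf142 (-1.08). The difference of IL32 was -0.27 against cells of at least 1000 UMIs, so it rested on which barcodes counted as cells. MTRNR2L8 reached the naming limit only through the low-UMI sums. Kit and cell preparation cannot be told apart.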

How the results depend on the processing

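The library block pairs the 2 sums of a library, since both come from the same library. With no replicate block, edgeR called 0 mouse genes in 3′ v3 (987 at an unadjusted p under 0.05), 385 in 5′ v1 and 12 for the kit difference, and 78, 6 and 0 human genes (487 unadjusted for the last). With the block, these were 12, 1929, 216, 390, 48 and 40. The cause of the changes below was not tested.

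Leaving out 1 library in turn gave 1 to 4148 mouse genes in 3′ v3, 0 to 3799 in 5′ v1 and 0 to 1717 for the kit difference, and 217 to 377, 8 to 88 and 4 to 80 human genes. The highest mouse counts came without 3′ v3 replicate 3. The kit difference had 732 and 740 mouse genes at an unadjusted p under 0.05 without 5′ v1 replicate 1 or 2.

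For mouse genes in 3′ v3, the count was 1 without TMM, 553 with DESeq2, 1288 with no filter, 1 at a mean of at least 50 CPM, 894 with barcodes of 1 to 9 UMIs, 2587 with 10 to 99, 7 without mitochondrial mRNA and 179 without barcodes 1 base from a cell barcode. For mouse genes in 5′ v1 it was 794 at 50 CPM and 28 with 1 to 9 UMIs. For the mouse kit difference it was 126 without TMM, 498 with DESeq2, 547 with no filter, 46 with 1 to 9 UMIs and 403 with 10 to 99. For human genes in 3′ v3 it was 624 with no filter, 99 at 50 CPM, 1384 with 1 to 9 UMIs, 107 with 10 to 99 and 100 with cells of at least 1000 UMIs. For human genes in 5′ v1 it was 91 with no filter, 26 at 50 CPM and 30 with 10 to 99 UMIs. For the human kit difference it was 15 at 50 CPM, 11 with 10 to 99 UMIs and 20 with cells of at least 1000 UMIs.

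Alternatives chosen after seeing the data gave, in the order mouse 3′ v3, 5′ v1 and kit difference and then human, these counts. Barcodes of 10 to under 500 UMIs gave 4605, 3048, 1443, 1069, 179 and 210. Leaving out barcodes of 100 or more UMIs in another library gave 147 in mouse 3′ v3, and 892, 110 and 128 in human, and without 3′ v3 replicate 3 as well 4292, 3804, 1799, 889, 239 and 259. Both the wider range and no such barcodes gave 4743, 3014, 1546, 1675, 244 and 438. With 3′ v3 replicates 1 and 3 only, the mixture they share, the kit difference was 626 in mouse, and human counts were 906, 434 and 225. With replicates 2 and 4 only, the counts were 4120, 4155, 1859, 1034, 457 and 570.

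The log2 ratio of mouse mitochondrial mRNA in 3′ v3 was 0.63 with barcodes of 1 to 9 UMIs, -1.37 with 10 to 99, -2.07 with 10 to under 500 and -2.39 with 10 to under 500 without shared barcodes, and -0.94 to -0.37 without 1 library. In 5′ v1 it was -0.18, -2.46, -1.69 and -1.68, with -1.82 after TMM, and -2.09 to -1.90. Mouse ribosomal protein was -0.13 with 1 to 9 UMIs in 3′ v3 (0.07 to 0.19 without 1 library), and in 5′ v1 -0.081 with 1 to 9, 0.12 with 10 to 99, 0.050 without mitochondrial mRNA and 0.28 after TMM (0.10 to 0.11). Mouse histones in 3′ v3 were -0.22, -0.49, -0.54 and -0.57 in the 4 ranges and -0.24 after TMM (-0.38 to -0.30), and in 5′ v1 0.81 with 1 to 9 UMIs and 1.07 after TMM (0.85 to 0.94). Human mitochondrial mRNA in 3′ v3 was 0.63, -0.32, -0.58 and -0.69 in the 4 ranges (0.03 to 0.29), and in 5′ v1 0.79 in both wide ranges (0.31 to 0.37). Human histones in 3′ v3 were -1.21 and -1.60 in the wide ranges (-0.80 to -0.68), and in 5′ v1 0.61 with 1 to 9 UMIs and 0.37 with 10 to 99 (0.39 to 0.51). TALL-104 markers in 3′ v3 were 0.30 against cells of at least 1000 UMIs and 3.03 in the wide range without shared barcodes (2.44 to 2.69), and in 5′ v1 0.91 against those cells and 1.17, 2.23, 2.42 and 2.44 in the 4 ranges (1.83 to 2.09). Without 1 library, the low-UMI share of UMIs was 3.57 to 5.64% in 3′ v3 and 4.20 to 4.28% in 5′ v1, and its human share 11.8 to 19.2% and 10.2 to 10.8%. With limits of 49 and under 200 UMIs the 5′ v1 share was 2.88% and 4.57%, and with 49 its human share 12.5%.

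Named genes that changed sign were Kcnq1ot1 in 5′ v1 (0.16 with 1 to 9 UMIs), the kit differences of mt-Co2 (0.37) and mt-Atp6 (0.23) in the wide range without shared barcodes and of Gm26917 in both wide ranges (0.57 and 0.61), CD52 in 3′ v3 (-0.0084 against cells of at least 1000 UMIs) and MYH9 (-0.059 and -0.11 in the wide ranges). The widest exact interval of the 3′ v2 shares spanned 0.265 percentage points.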
